A study of Mus musculus with 28 samples.

Results

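Rab GTPases and the proteins that switch them were followed through the response of mouse dendritic cells to bacterial lipopolysaccharide (LPS). Members were chosen by name alone, as rows with a gene name that begins with Rab and a number, Rabgap, Rabgef, Rabep or Tbc1d, and 36 of the 3147 rows of the RNA table met that rule. They comprised 20 Rab GTPases, 12 GTPase-activating proteins and 4 effectors, and 33 of them also had a row among the 6250 of the ribosome footprint table. On TPM as deposited, 11 members were higher and 12 lower in LPS cells than in mock cells over 6, 9 and 12 h. That was 63.9% of the members at an adjusted p under 0.05 by limma. At that threshold 15.5% of all genes were higher and 47.7% lower, 63.2% in all. After median-ratio rescaling, which moved the late median of all genes upward, 16 members were higher and 5 lower. The shares of all genes above are for TPM as deposited and do not frame these rescaled counts. The largest late changes were those of Tbc1d13, Rab8b, Rab32 and Tbc1d1 upward and of Tbc1d2 and Rab31 downward. Rab11fip1 had the largest rise of any member at any time, at 1 and 2 h.

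Rab proteins are small GTPases that sit on the membranes of transport vesicles and organelles and give each compartment its identity. Exchange factors load them with GTP, which lets them bind effectors that move, tether or fuse vesicles, and GTPase-activating proteins, most of them with a TBC domain, return them to the inactive GDP state. In dendritic cells and macrophages these switches guide the uptake and degradation of microbes, the recycling of surface receptors, the transport of MHC molecules and the release of cytokines.

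The bone marrow that gave rise to the dendritic cells came from female C57BL/6J mice aged 6 to 8 weeks. Cells were cultured with GM-CSF at 20 ng per ml and received LPS at 100 ng per ml on day 9 of culture, or a mock stimulus. Every group, 0 h included, came from cells of this one culture protocol, and the medium was exchanged at time 0 for one with labelled amino acids. The 26 RNA libraries were 2 each of LPS and of mock cells at 1, 2, 4, 6, 9 and 12 h, and 2 of unstimulated cells at 0 h. A further 2 libraries held ribosome footprints, the stretches of mRNA shielded by ribosomes, of resting cells. Whether replicates stem from different cultures is not in the labels, and p-values therefore reflect spread among libraries that could be technical.

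Levels are in TPM, a length-normalised share of a fixed total, so sequencing depth is unknown. Of 13 listed dendritic cell markers 4 had a row (Itgax, Cd74, H2-Aa and H2-Ab1), and their summed level spanned 7244 to 20965 TPM in LPS libraries and 8910 to 18635 TPM in mock libraries. Of 11 macrophage markers 6 had a row, led by Lyz2, with sums of 7923 to 37980 TPM in LPS libraries and 11494 to 43397 TPM in mock libraries. Of 15 granulocyte markers 10 had a row, with sums of 1266 to 8967 TPM in LPS libraries and 2666 to 11382 TPM in mock libraries. None of 11 T, B and NK cell markers and none of 10 mast, erythroid and stromal markers was among the listed rows. In such bulk samples fewer cells of a type and less RNA per cell cannot be told apart, and the part of these markers in the results below was not tested.

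Members ranged over much of the table's scale. By mean over all 26 RNA libraries the most abundant were Rab14 at 348 TPM, Rab5c at 310.2 TPM, Rab7 at 237 TPM, Rab8b at 215 TPM and the joined row of Rab11a and Rab11b at 202 TPM. Rab14 stood above 86.3% of all listed genes. The least abundant were Rabep2 at 7.84 TPM, Tbc1d2 at 10.2 TPM, Rabgap1 at 17.2 TPM and Rab19 at 17.5 TPM. The level of all members together was 3703 to 4329 TPM in LPS libraries and 3249 to 3763 TPM in mock libraries from 4 h on, ranges that overlap slightly. Summed by role over the same 8 libraries of each arm, the 4 exocytic Rabs took 646 to 900 TPM in LPS libraries and 428 to 478 TPM in mock libraries, and the 12 GTPase-activating proteins 579 to 848 TPM in LPS libraries and 451 to 569.8 TPM in mock libraries. The 5 ER and Golgi Rabs took 428 to 522 TPM in LPS libraries and 532 to 661 TPM in mock libraries. The arms did not overlap in these 3 role groups, but they did once single members were left out. Without Tbc1d13 the activating proteins summed to 338 to 401 TPM with LPS and 348 to 466 TPM with mock, and without Rab8b the exocytic Rabs to 336 to 525 TPM with LPS and 318 to 345 TPM with mock. The arms also overlapped for the activating proteins without Tbc1d1 or Tbc1d15, and for the ER and Golgi Rabs without Rab1b, Rab2a, Rab6 or Rab18. With every member counted, they overlapped in the other roles, for example in the 9 early and recycling endosome Rabs at 1163 to 1501 TPM with LPS and 1263 to 1460 TPM with mock.

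LPS and mock cells were compared time by time to see which members respond and when. A member was called where limma gave an adjusted p under 0.05 on log2 of TPM plus 1, which makes changes of low genes look smaller than they are. The joint test over the 6 times called 20 of the 36 members, against 57.2% of all genes. At 1 h 3 members were called higher and 3 lower, against 3.27% and 0.794% of all genes, or 4.07% in either direction. At 2 h 5 were higher and 2 lower (6.39% and 8.04% of all genes, 14.4% in all), and at 4 h 7 were higher and 9 lower (8.74% and 29.2%, 37.9% in all). At 6 h 10 were higher and 8 lower (11.2% and 30%, 41.2% in all), at 9 h 8 were higher and 7 lower (10.1% and 30%, 40.1% in all), and at 12 h 8 were higher and 2 lower (10% and 26.8%, 36.8% in all). The count at 1 h fell to 2 without either mock 1 h library and to 1 without replicate 2 of LPS at 1 h, and that at 2 h to 4 without replicate 2 of mock at 2 h.

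**Figure D1:**
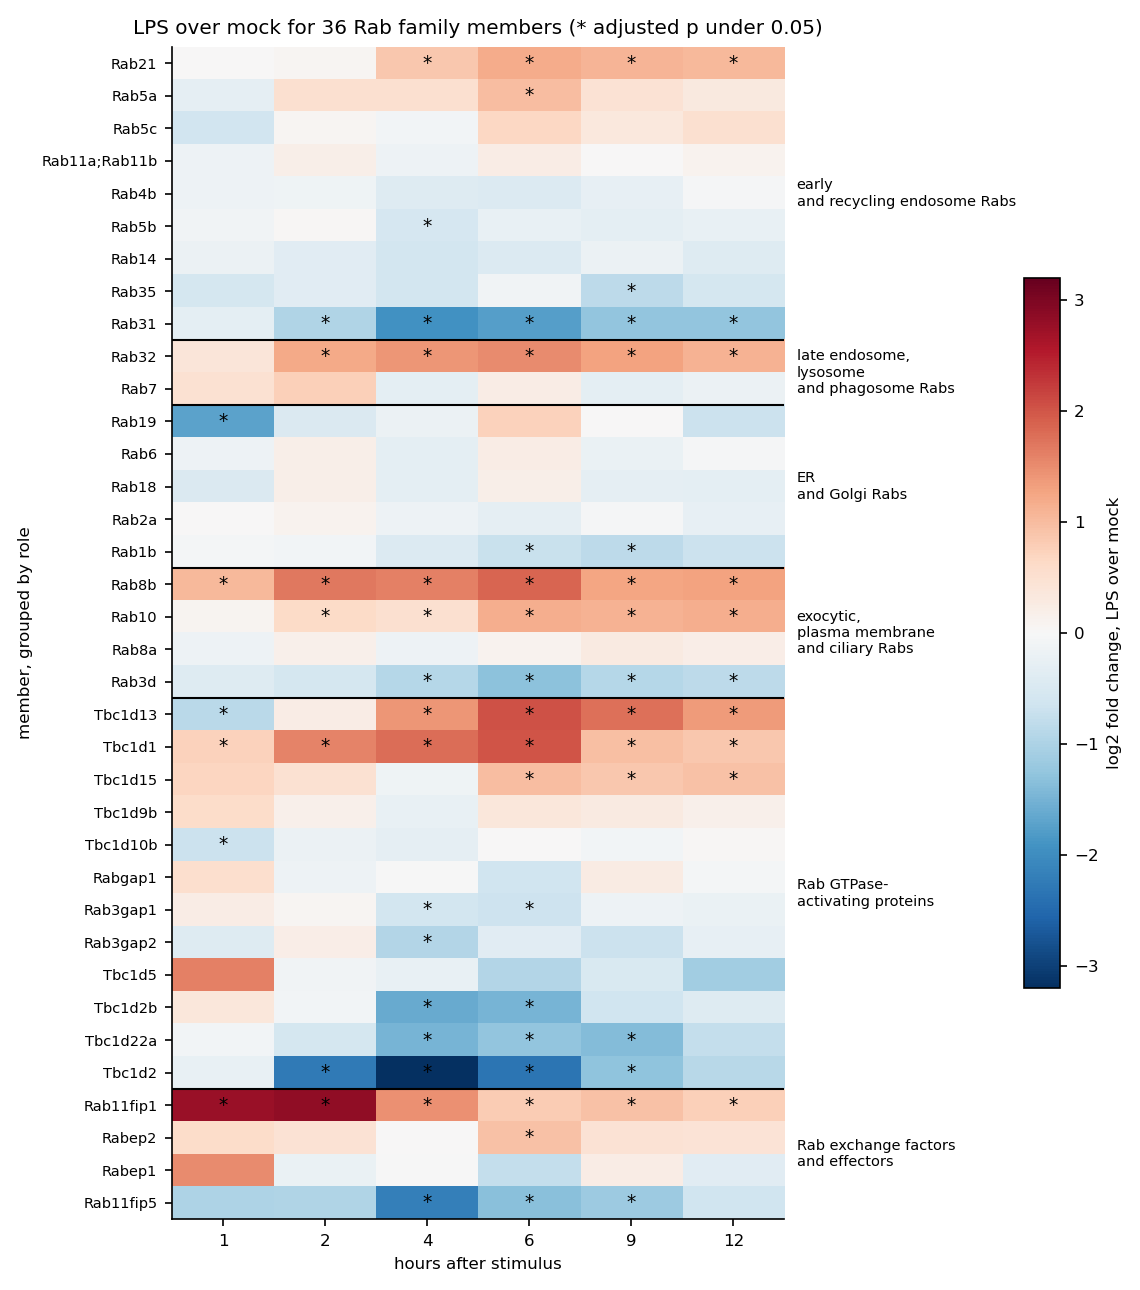
The grid gives the log2 fold change of LPS over mock for each of the 36 members (rows, grouped by role) at 1, 2, 4, 6, 9 and 12 h (columns), with red for higher and blue for lower in LPS cells and a star where the adjusted p was under 0.05. Rab8b, Tbc1d1 and Rab11fip1 are starred at all 6 times, while the ER and Golgi Rabs carry 3 stars in all. In limma's fit to the compared groups alone, Rab8b lost its calls at 1 and 9 h (adjusted p = 0.19 and 0.075). Tbc1d1 lost those at 1, 9 and 12 h there (adjusted p = 0.359, 0.081 and 0.051). Rab11fip1 lost those at 6, 9 and 12 h in that fit (adjusted p = 0.059, 0.083 and 0.064).

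For the late effect, the mean of 6, 9 and 12 h, 11 members were called higher and 12 lower, against 15.5% and 47.7% of all genes, 63.2% in all. The median late log2 fold change was -0.12 over the members and -0.43 over all genes. That all-gene shift was -0.05, -0.16, -0.46, -0.44, -0.44 and -0.39 at the 6 times in turn. After median-ratio rescaling, which moves the late median of all genes to -0.03, 16 members were called higher and 5 lower, and the median of the members was 0.29. With that rescaling 3, 5, 8, 16, 12 and 11 members were higher at the 6 times in turn, and 3, 2, 4, 5, 1 and 1 were lower. The shares of all genes given above are for deposited TPM, so none stands beside the rescaled counts. All 11 late rises held under rescaling, which moves fold changes upward and so could hardly end a rise. Of the 12 late falls, 5 held (Tbc1d2, Rab31, Tbc1d22a, Rab11fip5 and Rab3d), 4 kept their direction without a call, and Rab14, Rab3gap1 and Rab5b turned to log2 fold changes of 0.06, 0.04 and 0.14.

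**Figure D2:**
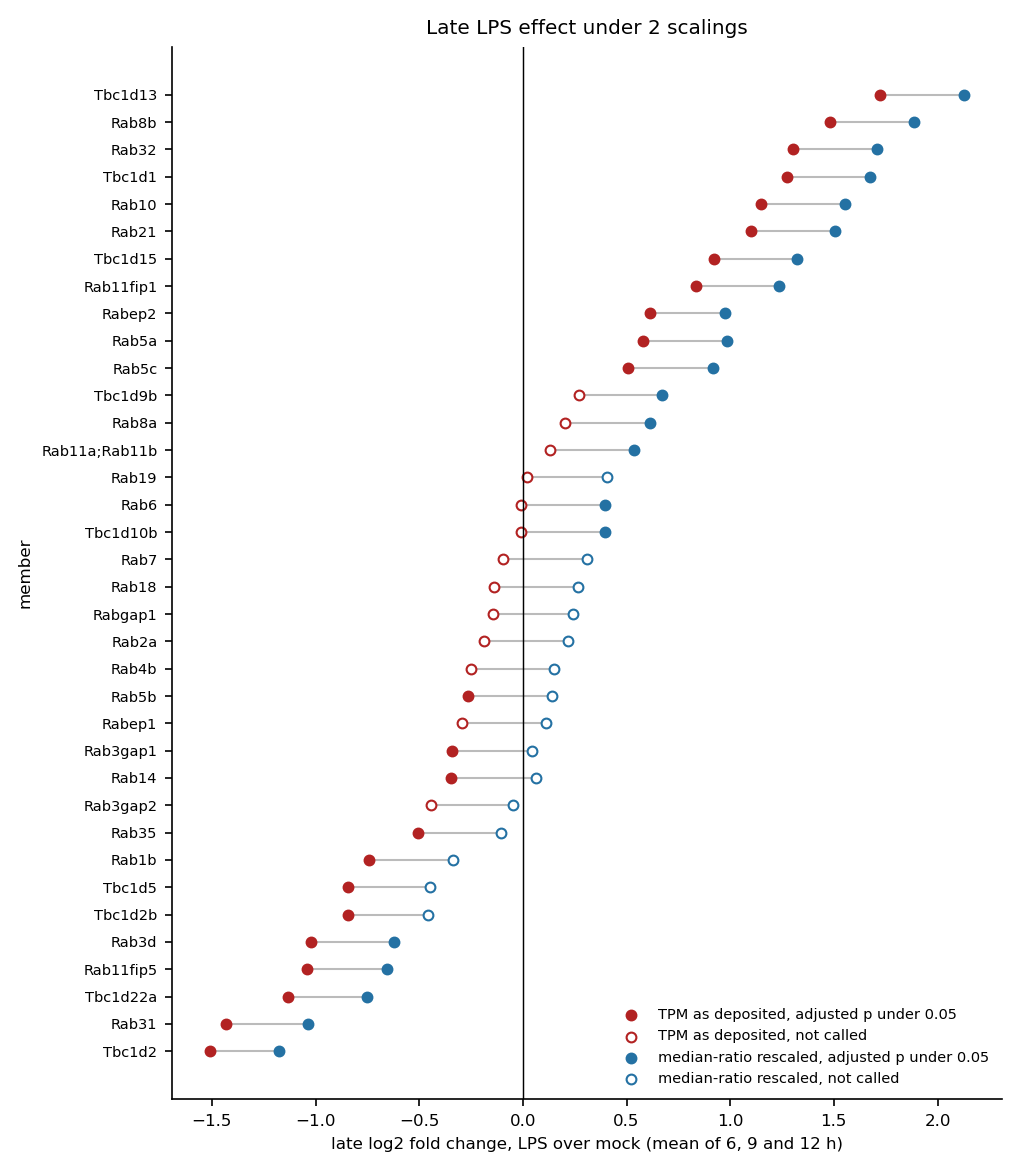
Each row is a member and the horizontal axis is its late log2 fold change of LPS over mock (mean of 6, 9 and 12 h), in red for TPM as deposited and in blue after median-ratio rescaling, with filled points where the adjusted p was under 0.05. Rescaling shifts the members to the right by similar amounts, with Tbc1d13 at 1.72 as deposited and 2.13 rescaled, while Rab14 crosses 0 between -0.35 and 0.06.

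Among the late rises, 4 members carried the palindrome CACGTG, the core of an E-box, in the window of 250 bases before to 50 bases after a gene start. Their windows are shown because of that match. Their time courses differed, with Rab5a called higher at 6 h only and Tbc1d13 called lower at 1 h. Windows come from RefSeq on build GRCm38.p6, written 5′ to 3′ on the gene's strand with the motif in capitals, and 32 of the 36 members matched one. Tbc1d13 lies on the plus strand at chr2:30133496-30133795, Rab21 on the minus strand at chr10:115315542-115315841, Rab5a on the plus strand at chr17:53478984-53479283, and Tbc1d15 on the minus strand at chr10:115251444-115251743.
Tbc1d13: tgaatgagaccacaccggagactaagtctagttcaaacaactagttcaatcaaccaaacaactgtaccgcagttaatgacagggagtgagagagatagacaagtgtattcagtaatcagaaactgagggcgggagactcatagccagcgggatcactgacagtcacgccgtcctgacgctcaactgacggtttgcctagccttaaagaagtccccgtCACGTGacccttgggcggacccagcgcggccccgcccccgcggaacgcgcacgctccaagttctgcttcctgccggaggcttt
Rab21: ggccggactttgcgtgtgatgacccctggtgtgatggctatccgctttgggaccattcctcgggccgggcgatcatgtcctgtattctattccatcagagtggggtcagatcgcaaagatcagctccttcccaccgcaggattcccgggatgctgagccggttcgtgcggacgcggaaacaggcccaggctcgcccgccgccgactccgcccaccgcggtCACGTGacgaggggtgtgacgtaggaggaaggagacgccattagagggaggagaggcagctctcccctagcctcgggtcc
Rab5a: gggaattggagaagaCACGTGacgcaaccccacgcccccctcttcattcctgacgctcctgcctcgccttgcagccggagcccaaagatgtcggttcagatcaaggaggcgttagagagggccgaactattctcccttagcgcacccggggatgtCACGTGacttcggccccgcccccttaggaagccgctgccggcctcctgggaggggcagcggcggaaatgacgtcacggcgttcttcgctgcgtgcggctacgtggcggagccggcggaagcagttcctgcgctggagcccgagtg
Tbc1d15: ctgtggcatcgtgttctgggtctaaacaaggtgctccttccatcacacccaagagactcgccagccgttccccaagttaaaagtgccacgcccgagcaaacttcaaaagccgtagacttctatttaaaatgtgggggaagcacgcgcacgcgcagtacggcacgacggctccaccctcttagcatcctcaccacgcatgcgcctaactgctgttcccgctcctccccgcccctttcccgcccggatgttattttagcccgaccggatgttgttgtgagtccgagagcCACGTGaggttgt
The motif, which reads the same on both strands, begins 33 bases before the start in Tbc1d13, 30 before it in Rab21, 235 and 95 before it in Rab5a, and 37 after it in Tbc1d15. It was found in the windows of 4 of the 10 late risers with one, of 1 of the 12 late fallers (Tbc1d5) and of 2 of the 10 other members (Rab3gap2 and Rabgap1). These counts are of members, some with more than 1 window. Counted by window, 7 of the 38 windows of members and 7.15% of all 32851 windows hold it. These matches describe the letters and say nothing of what binds there.

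Rab19 is shown because it was the member with the largest fall at 1 h and its window, on the plus strand at chr6:39381103-39381402, was the only one among the members with GAAA, any 2 bases and GAAA again, the form of an interferon response element, searched on both strands.
Rab19: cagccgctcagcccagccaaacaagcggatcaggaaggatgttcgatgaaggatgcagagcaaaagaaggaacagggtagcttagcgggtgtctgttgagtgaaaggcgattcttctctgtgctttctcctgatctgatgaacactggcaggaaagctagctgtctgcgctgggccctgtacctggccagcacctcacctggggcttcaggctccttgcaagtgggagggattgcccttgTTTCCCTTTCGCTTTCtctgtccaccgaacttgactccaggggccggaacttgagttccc
The motif occurs there in 2 overlapping copies that begin 10 and 4 bases before the start, and 3.44% of all windows hold it. Another motif, GGG followed by any 2 bases and TTTCC, the form of an NF-kB site, was found on either strand in the windows of Rabgap1 and Tbc1d10b and in 1.63% of all windows.

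The exocytic Rabs carry vesicles from the trans-Golgi network and from granules to the plasma membrane. Rab8b, which with its relative Rab8a serves that route and the growth of cell protrusions, measured 238 and 277 TPM in LPS libraries at 1 h, against 127 and 124 TPM in mock libraries. It reached 386 and 318 TPM at 2 h, 415 and 389 TPM at 4 h and 458 and 331 TPM at 6 h with LPS, against 109 and 108, 139 and 125, and 111 and 101 TPM with mock. Every LPS library from 1 h to 12 h lay above every mock library, and the late log2 fold change was 1.48 ± 0.14 (SE, adjusted p = 1.6e-07). It stayed called late in each alternative run. Rab10, which in mouse macrophages returns the LPS receptor Tlr4 to the cell surface, stood at 128 and 113 TPM in LPS libraries at 1 h, against 105 and 121 TPM in mock libraries, and the arms overlapped. From 2 h on they did not overlap, and at 6, 9 and 12 h the LPS libraries had 279 and 233, 315 and 233, and 297 and 258 TPM, against 114 and 113, 123 and 125, and 125 and 120.3 TPM in mock libraries. Its late log2 fold change was 1.15 ± 0.11 (adjusted p = 1.9e-07).

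Rab8a, the relative of Rab8b, measured 133 to 173 TPM in LPS libraries, median 149 TPM, and 117 to 150.3 TPM in mock libraries, median 131 TPM, at the late times, and the arms overlapped. Its late log2 fold change of 0.21 ± 0.10 was not called (adjusted p = 0.071), but it was called with replicate number as a block (adjusted p = 0.035), after rescaling (0.61 ± 0.09) and after quantile normalization (adjusted p = 0.023). Rab3d, a Rab of secretory granules, went the other way. At 6 h LPS libraries held 30.5 and 34.6 TPM of Rab3d and mock libraries 76.4 and 89.7 TPM, and over the late times 30.5 to 45.9 TPM, median 39.8 TPM, stood against 70.3 to 90.5 TPM, median 78.4 TPM. The arms did not overlap at any of the 6 times, and its late log2 fold change was -1.02 ± 0.11 (adjusted p = 6.5e-07) and -0.62 after rescaling.

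**Figure D3:**
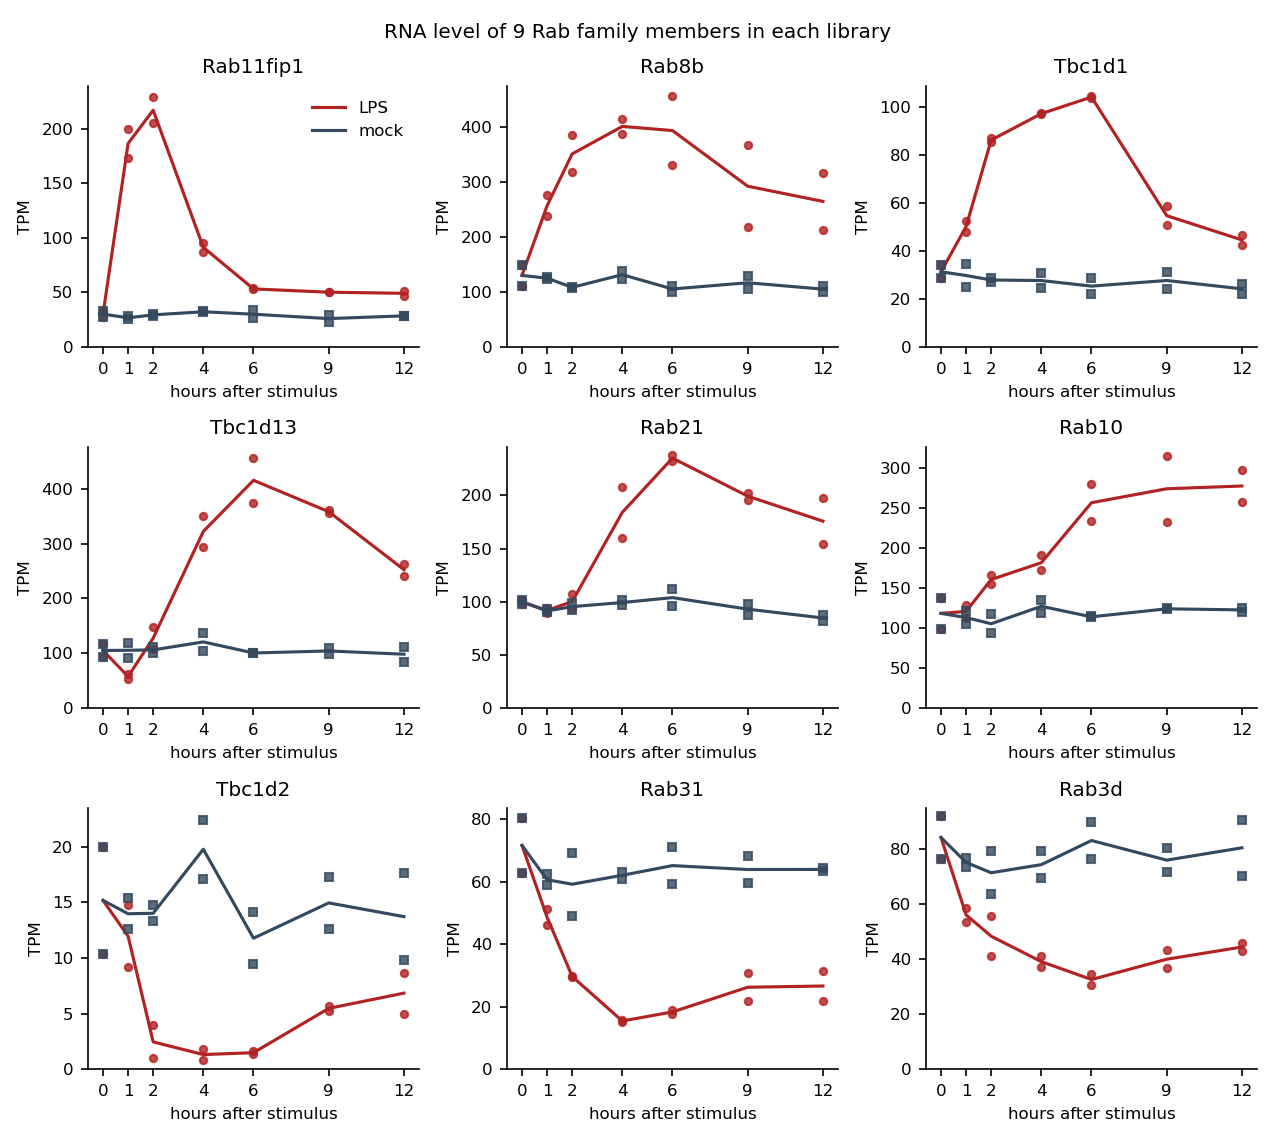
Each panel plots the level of a member in TPM against hours after stimulus, with points for single libraries, lines through the mean of 2 libraries, red for LPS and blue for mock, both starting from the same 0 h libraries. Rab11fip1 peaks at 1 to 2 h and Tbc1d13 at 6 h, Rab10 stays high to 12 h, and Tbc1d2 is lowest at 4 h and 6 h.

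Late endosome, lysosome and phagosome Rabs direct cargo to degradation. Rab32, which works on lysosome-related organelles and on vacuoles that hold bacteria, measured 219 and 139 TPM in LPS libraries at 2 h, against 86.3 and 64.8 TPM in mock libraries. At 6 h it had 251 and 189 TPM with LPS and 77.6 and 73.8 TPM with mock. LPS libraries were higher than mock libraries at every time, and the late log2 fold change was 1.30 ± 0.21 (adjusted p = 3.6e-05). The gap was narrow at 1 h, with 151 and 95.8 TPM against 95.6 and 88.8 TPM, and Rab32 was not called then. In limma's fit to the compared groups alone its calls at 2 and 9 h were lost (adjusted p = 0.066 and 0.089). Without replicate 1 of LPS at 12 h the log2 fold change at that time was 0.78, against 1.12 with it. Rab7, the central Rab of late endosomes and lysosomes, gave late values of 64.6 to 302 TPM, median 210.2 TPM, in LPS libraries and 109 to 289 TPM, median 163 TPM, in mock libraries. These overlapped, and the late log2 fold change was -0.09 ± 0.47, with a wider error than any other member but Rabep1. Replicate 1 exceeded replicate 2 in all 13 groups for Rab7, with 455 and 103 TPM at 0 h.

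Early and recycling endosome Rabs sort cargo after uptake. Rab21, which binds integrins and steers their endocytosis, measured 89.2 and 94.5 TPM in LPS libraries at 1 h and 90.0 and 92.8 TPM in mock libraries. At 4 h it stood at 160.4 and 208 TPM with LPS and 102 and 96.7 TPM with mock, and at 6 h at 232 and 238 TPM with LPS and 95.6 and 112 TPM with mock. The arms overlapped at 1 and 2 h and not from 4 h on, and the late log2 fold change was 1.10 ± 0.10 (adjusted p = 4.5e-08). Rab31, also called Rab22B, which carries cargo between the trans-Golgi network and endosomes, fell most in this group. LPS libraries held 51.3 and 46.0 TPM at 1 h, 29.7 and 29.7 TPM at 2 h, and 15.0 and 15.8 TPM at 4 h, against 58.8 and 62.5, 49.1 and 69.3, and 63.2 and 61.0 TPM in mock libraries. LPS libraries were lower at each time, and the log2 fold change was -1.94 ± 0.21 at 4 h (adjusted p = 3.1e-06) and -1.43 ± 0.12 late (adjusted p = 3.8e-08), or -1.04 late after rescaling.

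The Rab5 proteins, which drive fusion of early endosomes and of young phagosomes, differed in their late values. Rab5a measured 115 and 89.2 TPM in LPS libraries at 6 h and 62.7 and 41.0 TPM in mock libraries, and its late log2 fold change was 0.58 ± 0.17 (adjusted p = 0.0062). Rab5c had late levels of 319 to 445 TPM, median 392 TPM, with LPS and 208 to 362 TPM, median 260.5 TPM, with mock, a log2 fold change of 0.51 ± 0.16 (adjusted p = 0.010). It was not called at any single time or in limma's joint test over the 6 times (adjusted p = 0.080). Rab5b had 78.2 to 93.4 TPM with LPS and 89.7 to 121 TPM with mock, and its log2 fold change of -0.26 ± 0.09 (adjusted p = 0.017) turned to 0.14 after rescaling and lost its call without replicate 2 of mock at 12 h (adjusted p = 0.063). Late LPS and mock libraries overlapped for all 3 Rab5 genes. Rab14, the most abundant member, which serves endosome to Golgi and phagosome traffic, had 264 to 428 TPM with LPS and 339 to 438 TPM with mock late. The arms overlapped, its call (log2 fold change -0.35 ± 0.14, adjusted p = 0.036) was lost without either LPS library at 6 h, either mock library at 9 h, replicate 2 of mock at 6 h, or replicate 1 of LPS at 9 or 12 h or of mock at 12 h (adjusted p = 0.060 to 0.126), and rescaling turned the sign. Rab35, a Rab of fast recycling, had 27.6 to 64.3 TPM with LPS and 52.7 to 94.0 TPM with mock, and its late log2 fold change of -0.50 ± 0.18 (adjusted p = 0.025) was -0.10 and not called after rescaling. That call was also lost without replicate 1 of mock at 6 or 9 h, or replicate 2 of LPS at 9 or 12 h or of mock at 12 h (adjusted p = 0.057 to 0.097). The joined row of Rab11a and Rab11b, the Rabs of the recycling endosome, stayed between 166 and 236 TPM in all 26 libraries, with a late log2 fold change of 0.13 ± 0.09 that was called only after rescaling (0.54 ± 0.09). Rab4b, another Rab of fast recycling, had a late log2 fold change of -0.25 ± 0.13 and was not called late, but was with replicate number as a block (adjusted p = 0.030) and without replicate 2 of mock at 9 h (adjusted p = 0.029).

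ER and Golgi Rabs handle the first steps of secretion. Of the 5, only Rab1b, which controls transport between these organelles, was called late. It measured 122 and 126 TPM in LPS libraries at 6 h, against 255 and 161 TPM in mock libraries, and over the late times 106 to 126 TPM, median 117 TPM, against 161 to 255 TPM, median 180.0 TPM. The arms did not overlap, and the log2 fold change was -0.74 ± 0.16 (adjusted p = 5.6e-04), or -0.34 and not called after rescaling (adjusted p = 0.065). Rab2a, Rab6 and Rab18, which serve the Golgi, traffic within it and lipid droplets, had late log2 fold changes of -0.19, -0.01 and -0.14. Rab2a was called late only with the block (adjusted p = 0.039) and Rab6 only after rescaling, at 0.40 ± 0.11. Rab19, a Golgi-associated Rab with few known functions, was low and uneven. LPS libraries held 6.64 and 3.75 TPM at 1 h, against 12.96 and 27.1 TPM in mock libraries, and 10.7 and 17.4 TPM at 2 h, against 16.5 and 22.6 TPM. At 1 h both LPS libraries lay below both mock libraries, and from 2 h on the arms overlapped. The log2 fold change of Rab19 was -1.72 ± 0.46 at 1 h (adjusted p = 0.043), with adjusted p = 0.331 without replicate 2 of mock at 1 h and 0.389 without replicate 2 of LPS at 1 h, and 0.02 ± 0.26 late, or 0.62 ± 0.24 late after quantile normalization, which called it (adjusted p = 0.037).

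GTPase-activating proteins switch Rabs off. Late, 3 of the 12 were called higher and 5 lower, 66.7% in all against 63.2% of all genes. Tbc1d13, which acts on Rab35, changed most of all members late. LPS libraries held 61.5 and 53.9 TPM at 1 h, against 92.1 and 119 TPM in mock libraries, so it was lower first. They then held 294 and 351 TPM at 4 h, 375 and 456 TPM at 6 h, 360.5 and 356 TPM at 9 h and 264 and 241 TPM at 12 h, against 84.2 to 137 TPM in the mock libraries of those times. The arms overlapped at 2 h only. The log2 fold change was 2.03 ± 0.22 at 6 h (adjusted p = 1.5e-06) and 1.72 ± 0.12 late (adjusted p = 4.1e-09), and the fall at 1 h, -0.85 ± 0.22 (adjusted p = 0.032), was not called without replicate 1 of mock at 1 h (adjusted p = 0.064), replicate 2 of mock at 1 h (0.263) or replicate 2 of LPS at 1 h (0.246).

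Tbc1d1, which acts on Rab8a and Rab10 and is best known from glucose uptake in muscle, had 85.5 and 87.0 TPM in LPS libraries at 2 h, 97.5 and 97.0 TPM at 4 h and 104 and 105 TPM at 6 h. Mock libraries of these times held 22.2 to 30.8 TPM. At 9 and 12 h LPS libraries were back to 42.6 to 58.7 TPM, still above all mock libraries of those times, and the late log2 fold change was 1.27 ± 0.11 (adjusted p = 5.5e-08). Tbc1d15, which acts on Rab7, measured 49.1 to 69.1 TPM in LPS libraries late, median 56.8 TPM, and 23.5 to 37.5 TPM in mock libraries, median 30.6 TPM, with no overlap. Its log2 fold change was -0.15 ± 0.24 at 4 h and 0.92 ± 0.14 late (adjusted p = 2.7e-05).

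Of the 5 GTPase-activating proteins that fell late, Tbc1d2, Tbc1d2b and Tbc1d22a had their lowest log2 fold change at 4 h. That of Rab3gap1 was at 6 h and that of Tbc1d5 at 12 h. Tbc1d2, also called Armus, another that acts on Rab7, measured 3.94 and 0.956 TPM in LPS libraries at 2 h, 1.82 and 0.787 TPM at 4 h and 1.60 and 1.35 TPM at 6 h. Mock libraries held 14.7 and 13.3, 22.4 and 17.1, and 14.1 and 9.43 TPM. LPS libraries lay below mock libraries from 2 h on, and the log2 fold change was -3.20 ± 0.44 at 4 h (adjusted p = 3.0e-05), the largest fall of any member, and -1.51 ± 0.25 late. Its relative Tbc1d2b had 12.0 and 9.40 TPM at 4 h with LPS and 32.7 and 36.2 TPM with mock. Its late log2 fold change of -0.85 ± 0.22 (adjusted p = 0.0036) was -0.46 and not called after rescaling (adjusted p = 0.084). Tbc1d22a, which is found at the Golgi, had 10.1 and 7.06 TPM at 4 h with LPS and 32.6 and 19.7 TPM with mock, and its late log2 fold change was -1.13 ± 0.25 (adjusted p = 9.9e-04), or -0.43 and not called after quantile normalization (adjusted p = 0.099). Tbc1d5, a Rab7 regulator tied to retromer, had 142 and 72.1 TPM at 1 h with LPS and 29.5 and 35.1 TPM with mock, a difference that was not called (adjusted p = 0.077), nor was it called at any other single time or early (0.75 ± 0.35, adjusted p = 0.158). It had 15.9 to 44.0 TPM late with LPS and 34.6 to 61.9 TPM late with mock. Its late log2 fold change of -0.84 ± 0.29 (adjusted p = 0.018) was not called after rescaling, nor without replicate 1 of LPS at 6, 9 or 12 h or replicate 1 of mock at 12 h (adjusted p = 0.057 to 0.070).

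Of the remaining activators, Rab3gap1 and Rab3gap2 form a complex that acts on Rab3 proteins and activates Rab18. Rab3gap1 had 11.7 to 16.8 TPM late with LPS and 14.6 to 21.7 TPM with mock, and its log2 fold change was -0.34 ± 0.12 on deposited TPM (adjusted p = 0.021), 0.04 after median-ratio rescaling and 0.33 ± 0.10 after quantile normalization (adjusted p = 0.0084), so its direction depends on the scaling. Leaving out replicate 2 of LPS at 6 or 12 h or replicate 1 of mock at 9 or 12 h also ended the call on deposited TPM (adjusted p = 0.050 to 0.078). Rab3gap2 was not called late on deposited TPM, but was with the block, at -0.44 ± 0.18 (adjusted p = 0.035), in the fit to the compared groups alone and without replicate 1 of LPS at 12 h (adjusted p = 0.010). Tbc1d10b, Tbc1d9b and Rabgap1 were not called late on deposited TPM, with log2 fold changes of -0.01, 0.27 and -0.14, and Tbc1d10b and Tbc1d9b rose after rescaling, by 0.40 and 0.67.

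Effectors read the GTP-bound state. Rab11fip1, or Rab coupling protein, which binds Rab11 and sends cargo from recycling endosomes to the surface, had the largest rise of all members. LPS libraries measured 174 and 199.5 TPM at 1 h and 205 and 229 TPM at 2 h, against 25.3 and 28.3 TPM and 28.4 and 30.7 TPM in mock libraries. They held 95.4 and 87.3 TPM at 4 h and 46.8 to 53.8 TPM from 6 h on, against 22.8 to 33.9 TPM in mock libraries of 4 to 12 h. No LPS library fell within the range of the mock libraries at any time. The log2 fold change was 2.75 ± 0.17 at 1 h (adjusted p = 5.4e-08), 2.84 ± 0.17 at 2 h and 0.84 ± 0.10 late. Rab11fip5, a relative that also binds Rab11, fell. It had 9.77 and 4.83 TPM at 4 h in LPS libraries and 31.7 and 39.3 TPM in mock libraries, and its late log2 fold change was -1.04 ± 0.21 (adjusted p = 3.2e-04), or -0.41 and not called after quantile normalization (adjusted p = 0.068).

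Rabaptin-5, encoded by Rabep1, and its relative Rabep2 bind Rab5 together with its exchange factor. Rabep2 rose slightly late, from a low level, with 5.60 to 11.6 TPM, median 9.75 TPM, in LPS libraries and 3.82 to 7.41 TPM, median 6.12 TPM, in mock libraries. Its ranges overlapped and its late log2 fold change was 0.61 ± 0.19 (adjusted p = 0.011). Rabep2 was not called in limma's joint test over the 6 times (adjusted p = 0.079). Of single times it was called at 6 h only, and not in the fit to the compared groups alone (adjusted p = 0.101). Rabep1 varied more between replicates than between arms. LPS libraries at 1 h held 149 and 727 TPM, against 91.5 and 145 TPM in mock libraries, and replicate 2 exceeded replicate 1 in 12 of 13 groups. Its late log2 fold change was -0.29 ± 0.58, and it was not called at any time.

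The early effect, the mean of 1 and 2 h, was set against the late one to see which members changed course. Early, 5 members were called higher and 6 lower, against 8.39% and 9.72% of all genes, 18.1% in all. The early rises were Rab11fip1 (2.79 ± 0.12 on the log2 scale), Rab8b (1.35 ± 0.18), Tbc1d1 (1.17 ± 0.14), Rab32 (0.80 ± 0.25) and Tbc1d15 (0.59 ± 0.17), all of which were also called higher late. The early falls were Tbc1d2 (-1.25 ± 0.31), Rab19 (-1.09 ± 0.32), Rab11fip5 (-0.97 ± 0.25), Rab31 (-0.63 ± 0.15), Rab3d (-0.49 ± 0.14) and Tbc1d10b (-0.44 ± 0.13). The count of 11 early calls fell to 6 without replicate 2 of LPS at 1 h or replicate 2 of mock at 2 h, and to 7 without replicate 1 of mock at 1 h, of mock at 2 h or of LPS at 2 h. Without a single early library the calls of Rab11fip1, Rab8b, Tbc1d1 and Rab31 held in each of 8 fits, Tbc1d2 lost its call without replicate 2 of LPS at 2 h (adjusted p = 0.058), and the other 6 lost theirs without 2 to 6 of the 8 libraries (adjusted p = 0.050 to 0.147). After rescaling 6 were higher and 4 lower early, counts that the shares of all genes on deposited TPM do not frame.

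Late effects exceeded early ones in 4 members and lay below them in 6, against 8.17% and 22.2% of all genes, 30.4% in all. Tbc1d13 changed course most, with a log2 fold change of -0.30 early and 1.72 late, a difference of 2.02 ± 0.20 (adjusted p = 1.5e-06). Rab21 differed by 1.06 ± 0.15, Rab10 by 0.80 ± 0.18 and Rab5c by 0.79 ± 0.25. Rab11fip1 went back toward mock, with a difference of -1.96 ± 0.16 (adjusted p = 2.7e-07). Tbc1d5, Tbc1d2b, Rab31, Rab1b and Rab3d differed by -1.60, -0.98, -0.80, -0.67 and -0.53. None of these 5 was called after rescaling, which called 10 members higher and 1 lower. The shares of all genes are for deposited TPM and do not frame the rescaled counts. The count of 10 fell to 6 without replicate 2 of mock at 1 h. Of single libraries, 16 of 20 ended the call of Rab1b, 13 that of Tbc1d2b and 10 that of Rab3d, and Rab5c lost its call without replicate 2 of mock at 1 h or replicate 1 of LPS at 2 h (adjusted p = 0.076 and 0.051). Rab19, at 1.11 ± 0.42, was not called on deposited TPM (adjusted p = 0.053), but was called with the block (adjusted p = 0.027), after rescaling (1.41 ± 0.40) and after quantile normalization (1.59 ± 0.37, adjusted p = 0.0057), among other alternatives. In mock cells 0 of 36 members and 0% of all genes were called by limma between 9 to 12 h and 1 to 2 h, with 1 member and 55 of all genes at an unadjusted p under 0.05.

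Ratios between related members in the same library do not depend on the scaling of that library. They were computed for 8 pairs, chosen after the data were seen, over the 6 late libraries of each arm, and are given as a description with no test, since the pairs were picked with the members' late changes known. The Rab8b to Rab8a ratio of TPM was 1.44 to 3.44 with LPS, median 2.00, and 0.748 to 0.900 with mock, median 0.846. The Rab5a to Rab5b ratio was 0.704 to 1.39 with LPS, median 1.02, and 0.403 to 0.699 with mock, median 0.569. The Rab5c to Rab5b ratio was 3.81 to 5.68 with LPS, median 4.24, and 2.11 to 3.01 with mock, median 2.68. The Rab11fip1 to Rab11fip5 ratio was 2.55 to 4.60 with LPS, median 3.49, and 0.665 to 1.02 with mock, median 0.890. In these 4 pairs the arms did not overlap.

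In the other 4 pairs the arms overlapped. Tbc1d2 to Tbc1d2b had a median ratio of 0.288 with LPS and 0.473 with mock, and Rab5a to Rab5c one of 0.214 with LPS and 0.216 with mock. Rab3gap1 to Rab3gap2 had 0.707 with LPS and 0.651 with mock, and Rabep1 to Rabep2 had 12.2 with LPS and 25.5 with mock. Related genes share sequence, and reads of 30 bases that match both are divided between them by an estimate, so single values of close relatives are less certain than those of other members.

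**Figure D4:**
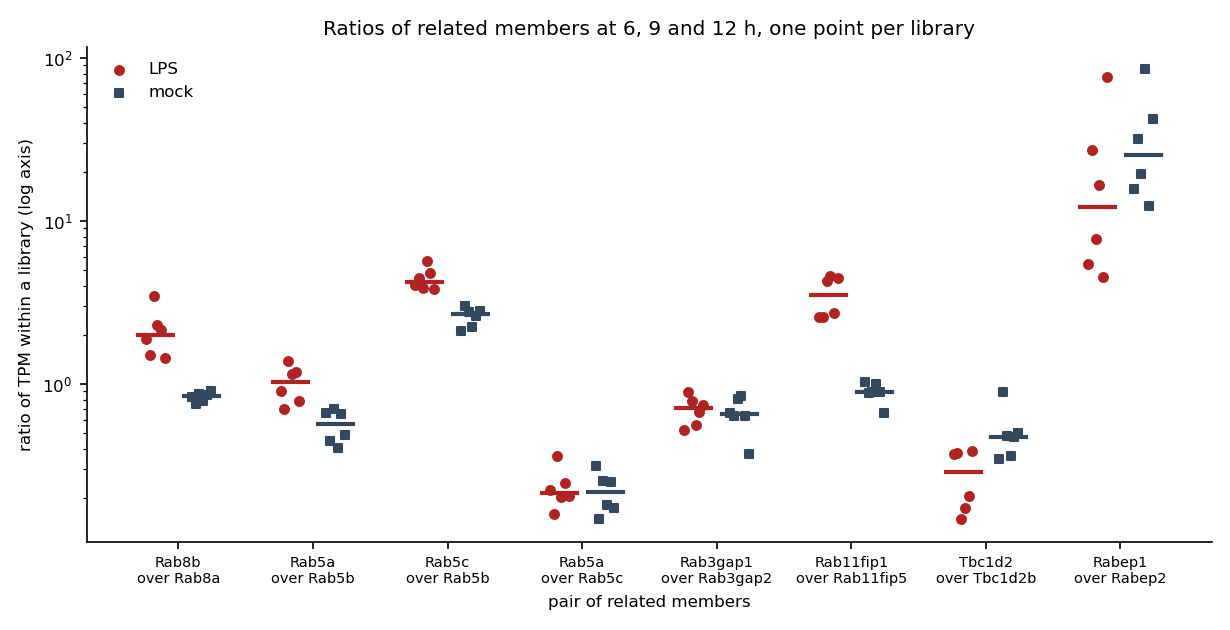
For 8 pairs of related members, each point is the ratio of their TPM in a single library at 6, 9 or 12 h, on a log axis, with red circles for LPS left of blue squares for mock and bars at the median of 6 libraries. The arms separate fully for Rab8b over Rab8a, Rab5a over Rab5b, Rab5c over Rab5b and Rab11fip1 over Rab11fip5, and overlap for the other 4 pairs.

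Other genes of the Rab cycle and further effectors, taken from lists kept outside the name rule, gave a frame. Of 60 listed exchange factors, escorts and prenylation genes 15 had a row, and late 4 were called higher and 3 lower, 46.7% in all against 63.2% of all genes. Chm, the Rab escort protein that presents Rabs for prenylation, averaged 22.1 TPM with LPS and 11.6 TPM with mock (log2 fold change 0.88 ± 0.14, adjusted p = 3.1e-05). Trappc1, a subunit of the TRAPP exchange factor for Rab1, averaged 60.8 TPM with LPS and 119.7 TPM with mock (-0.95 ± 0.17). Of 54 listed effectors 20 had a row, and 4 were called higher and 7 lower, 55% in all. Micall2, which binds Rab8 and Rab13, averaged 34.2 TPM with LPS and 10.3 TPM with mock (1.60 ± 0.21). Mical1, which binds Rab1 and other Rabs and oxidises actin, averaged 9.99 TPM with LPS and 76.9 TPM with mock, a log2 fold change of -2.93 ± 0.21 (adjusted p = 5.0e-09) and a deeper late fall than that of any member.

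Ribosome footprints of resting cells were set against the 0 h RNA to see how members are loaded with ribosomes before stimulation. The median gene over the 2896 rows shared by both tables was set to 0 in each library, and the kinds of library were prepared separately, so a difference also holds what differs between preparations. Of 33 members 5 were higher in footprints and 4 lower, against 14.1% and 13.6% of all shared genes (27.7% in all), and the median difference was 0.20 for members and 0.11 for all genes. These calls depend on the scaling: without centring 0 members were higher and 13 lower, so that all 5 higher calls ended. After quantile normalization 2 were higher and 4 lower. Leaving out the centring lowers every gene by the same amount, for Rab10 from 0.93 to 0.08. The shares of all shared genes are for the centred fit and do not frame these counts. Rab1b had 272 and 290.2 TPM in footprints and 288 and 156 TPM in RNA, a centred log2 difference of 1.25 ± 0.32 (adjusted p = 0.035). Rab8b had 143 and 176 TPM in footprints and 149.7 and 111 TPM in RNA (1.14 ± 0.25, adjusted p = 0.026), and Rab10 and Tbc1d15 differed by 0.93 and 0.81. The median centred difference was 0.44 over 18 Rab GTPases and -0.18 over 12 activating proteins. Lower in footprints were Tbc1d10b with 21.4 and 19.8 TPM in footprints and 110.5 and 81.4 TPM in RNA (-1.30 ± 0.24, adjusted p = 0.017), Rab4b at -1.14 and Tbc1d9b at -1.04.

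The extremes were the members whose RNA replicates differed most. Rab7 had 559 and 569.9 TPM in footprints and 455 and 103 TPM in RNA, a difference of 2.23 ± 0.62 (adjusted p = 0.044). Rabep1 had 6.84 and 8.05 TPM in footprints and 60.6 and 265 TPM in RNA, a difference of -3.08 ± 0.67 (adjusted p = 0.025). Footprint replicates lay close together in both, and the spread lay in the RNA libraries. With replicate number as a block Tbc1d15 was no longer called (adjusted p = 0.054). The count of 9 was 22 without replicate 1 and 21 without replicate 2 of the 0 h RNA, and 2 without either footprint library, so it depends on single libraries.

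**Figure D5:**
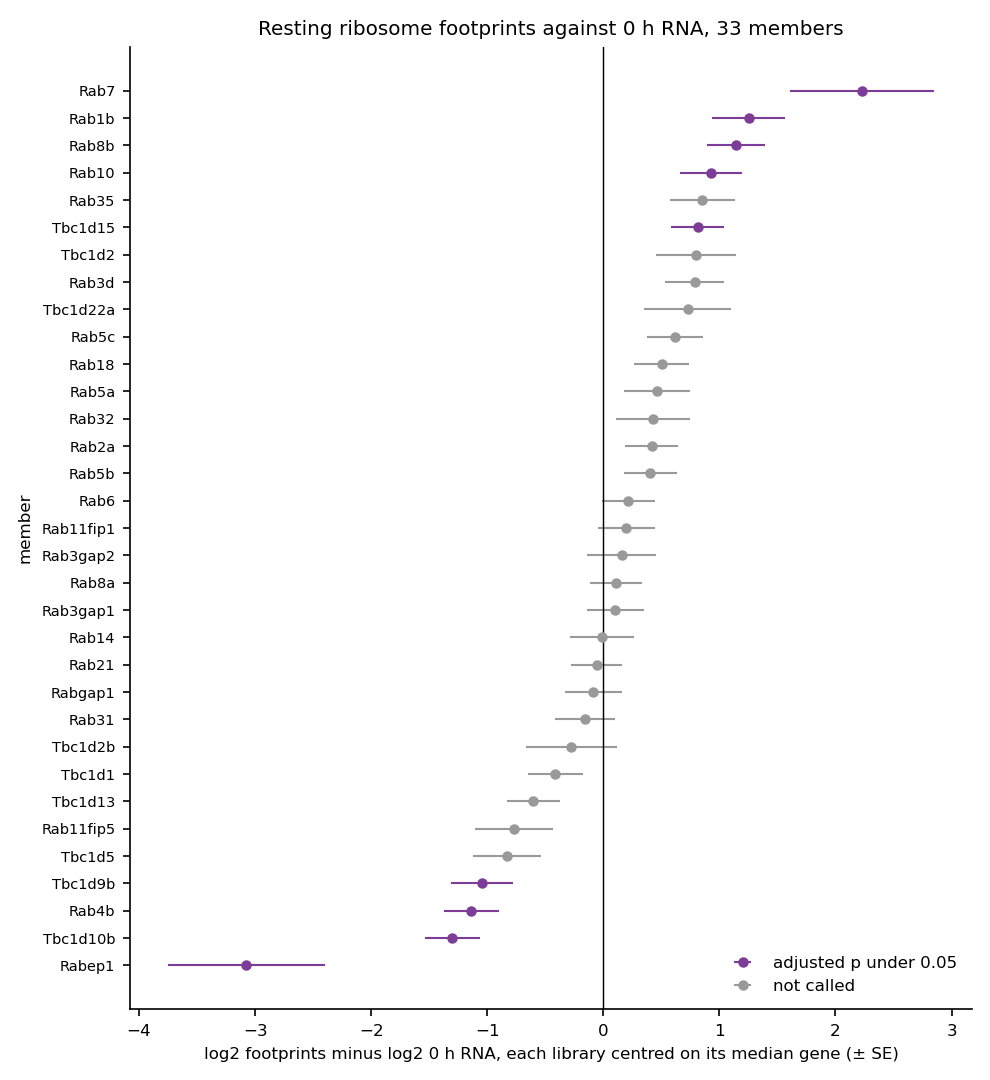
Each row is 1 of 33 members, and the horizontal axis is the log2 footprint level minus the log2 RNA level at 0 h, with the median gene of each library at 0 and bars of 1 SE and purple where the adjusted p was under 0.05. Rab7 at 2.23 and Rabep1 at -3.08 stand at the ends with the widest bars. Positive differences are seen in 14 of 18 Rab GTPases and 5 of 12 activating proteins, against 1593 of all 2896 shared genes. These signs depend on the centring, which sets where 0 lies.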

How the data were processed

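RNA was poly(A)-selected, strand-specific and sequenced in pairs of 30 bases, per the labels' protocols. RNA values are deposited in TPM, computed by the authors with RSEM 1.2.3 after Bowtie 0.12.7 alignment to mm9, per the submitters' processing notes. Footprint reads were aligned with Bowtie2 and TopHat2, versions not given in the sources used here, and the deposited values were taken as TPM since each column sums to 1000000. How the listed genes were selected is not given in the sources used here. Descriptions of the 4 h samples name another hour than their titles and the table, and 4 h was used. TPM holds no depth. Errors of the RNA fit rest on the spread between the 2 libraries of a group, pooled over 13 groups.

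Log2 of TPM plus 1 was fitted with limma 3.58.1 in R 4.3.3 to all 26 RNA libraries (13 groups, 13 residual degrees of freedom, variance trend), with Benjamini-Hochberg adjustment over all 3147 rows, of which all passed a minimum of 1 TPM in 2 libraries. Errors of fold changes are moderated SE. Median-ratio rescaling, quantile normalization, a replicate block, pseudocounts of 0.1 and 5, a minimum of 10 TPM, fits to the compared groups alone and leaving out each library were alternatives. The steps were tested on simulated data. For the replicate block, replicate numbers, which the labels repeat in every group, were taken to pair the samples. Deviations of LPS and mock libraries with the same number correlated at every time (r = 0.51, 0.68, 0.23, 0.65, 0.68 and 0.53 across genes). The fit reported above had no replicate term, so its errors and calls leave this pairing out. With the block 27 members were called late and 15 for late minus early, against 23 and 10 without it, with no share of all genes set beside them.

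Members, role groups, lists and comparisons were chosen with earlier results of these data known. Named with values are members with the largest changes past the joint test, the 5 most abundant, Rab19, members whose late and early effects differ, the footprint extremes and well-studied Rabs of phagocytes. Promoter windows are from RefSeq on GRCm38.p6, while the RNA build was mm9, so no coordinate of the deposited data was used. Plots used Python 3.11.15 with matplotlib 3.10.9.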

Additional observations from a re-analysis of the deposited data

Results flagged for a closer look

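The late effect of LPS (6, 9 and 12 h) differed from its early effect (1 and 2 h) in 10 members, by limma's test of the difference itself on the log2 scale, over 6 late and 4 early libraries of each arm. Above their early effect were Tbc1d13 by 2.02, Rab21 by 1.06, Rab10 by 0.80 and Rab5c by 0.79. Below it were Rab11fip1 at -1.96, Tbc1d5 at -1.60, Tbc1d2b at -0.98, Rab31 at -0.80, Rab1b at -0.67 and Rab3d at -0.53. Of all genes 30.4% were called in this comparison. Groups of 2 libraries are too small to single out a stray sample.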

How the results depend on the processing

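Over 125 calls of members in single comparisons, 51 held in every alternative run and 74 were lost or turned in at least 1. The late rises of Tbc1d13, Rab8b, Rab32, Tbc1d1, Rab10, Rab21, Tbc1d15, Rab11fip1, Rabep2, Rab5a and Rab5c and the late falls of Tbc1d2, Rab31 and Rab3d were among those that held. Fitted to the compared groups alone, the members called were 1 at 1 h, 3 at 2 h, 1 at 9 h and 5 early, against 6, 7, 15 and 11 in the fit to all groups. Those fits rest on fewer libraries for every gene. Here and below, shares of all genes in the alternatives are not given, so a changed count cannot be read as particular to the members. Signs turned late after median-ratio rescaling for Rab14 (0.062), Rab3gap1 (0.044) and Rab5b (0.14), after quantile normalization for Rab3gap1 at 4 h (0.18), at 6 h (0.051) and late (0.33), and without centring for Tbc1d15 in footprints (-0.039). The cause was not tested. The replicate block gave 9, 9, 17, 21, 16 and 12 calls at the 6 times, 12 early, 27 late, 15 for late minus early, 26 in the joint test and 9 in footprints, and of the 125 calls it ended only that of Tbc1d15 in footprints.

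Leaving out single libraries gave 1 to 5 calls at 1 h, 4 to 7 at 2 h, 11 to 13 at 4 h, 13 to 15 at 6 h, 10 to 13 at 9 h, 8 to 10 at 12 h, 6 to 10 early, 20 to 23 late, 6 to 11 for late minus early, 15 to 21 in the joint test and 2 to 22 in footprints. In mock cells, late against early times, limma called 0 members in each alternative (1 member at an unadjusted p under 0.05 in the fit to all groups). Levels are shares of a fixed total, depth is unknown, and 2 libraries a group leave modest changes at single times undetected.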

Other observations

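A further 16 Rab-named rows were listed for footprints without a row in the RNA table, so only their resting footprint level is known. Rab1, an ER to Golgi Rab, measured 269 and 329 TPM, near the level of Rab1b at 272 and 290.2 TPM. Rab11a and Rab11b, which share a row in the RNA table, had separate footprint rows at 155 and 178 TPM for Rab11a and 118 and 117 TPM for Rab11b. Rab3il1, an exchange factor for Rab8 proteins, had 62.3 and 65.5 TPM, the joined row of Rab42 and Rab7b 46.6 and 67.1 TPM, and Rabgef1, the exchange factor for Rab5, 13.8 and 13.3 TPM.

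Replicates of Rabep1 and Rab7 differed in opposite senses. The median log2 ratio of replicate 2 over replicate 1 across 13 groups was 1.21 for Rabep1 and -1.02 for Rab7, and these were the 2 members whose median absolute replicate difference exceeded 0.85, the 95th percentile of all 3147 genes.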
